A study of Homo sapiens with 18 samples.

Results

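KMS11 myeloma cells that received the Y1118A form of MMSET II were compared with cells that received DSRed alone, across the transcriptome. The 11743 probes described here are those detected (detection p under 0.01) on at least 3 of the 6 arrays compared, which is 24.1% of the 48803 probes of the bead array and 88.1% of the 13336 probes that entered the model of the whole series. They carry 8058 named genes, taken at 1 probe per gene. KMS11 is an established human multiple myeloma line with the t(4;14) translocation, bringing immunoglobulin enhancers next to MMSET and FGFR3. In both groups the cells are labelled as MMSET knock-outs, so that background is shared by control and treatment as far as the labels tell. The 3 control arrays hold cells infected with an empty vector, labelled DSRed. The 3 treated arrays hold cells infected with a retrovirus restoring the Y1118A form, which the labels call inactive. 2 further groups of 3 arrays each, in the same knock-out background, serve as references: cells restored with wild-type MMSET II, and cells restored with the F1177A form, which the labels call active. The remaining 6 arrays hold KMS11 cells with an inducible hairpin against the 5' region of MMSET, without doxycycline (no DOX) or with it (+DOX). No source used here gives the vector's promoter or says whether the cells are 1 clone. The labels call the arrays triplicates and name no separate cultures, so every p-value here is set against the spread of arrays that may be technical repeats.

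MMSET, encoded by NSD2, is a histone methyltransferase that places dimethyl marks on lysine 36 of histone H3, a mark found over transcribed genes. MMSET II is the full-length protein, whose catalytic SET domain transfers the methyl group. Y1118A and F1177A each replace an aromatic residue with alanine. Comparing the Y1118A form with DSRed asks which RNAs move when a form labelled inactive is put into cells labelled MMSET knock-outs. Plasma cells and their malignant counterparts secrete immunoglobulin and depend on a large endoplasmic reticulum, on the unfolded protein response and on the proteasome.

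The third DSRed array stood apart from the other DSRed arrays. The 95th percentile of its intensity was 1033, against 491.4 and 453.5 on DSRed replicates 1 and 2 and 746.5 to 775 on the Y1118A arrays. Over the 11743 probes its log2 values correlated with those of the other DSRed arrays at 0.979 to 0.983 and with those of the Y1118A arrays at 0.981 to 0.983, whereas DSRed replicates 1 and 2 correlated with each other at 0.996. The Y1118A arrays correlated with one another at 0.996 to 0.997. Probes detected numbered 10731 to 11680 on the DSRed arrays and 11585 to 11962 on the Y1118A arrays. Totals and the counts of most lists are therefore given with and without replicate 3. Leaving it out can show how much 1 array weighs but not which of the arrays is typical.

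**Figure D1:**
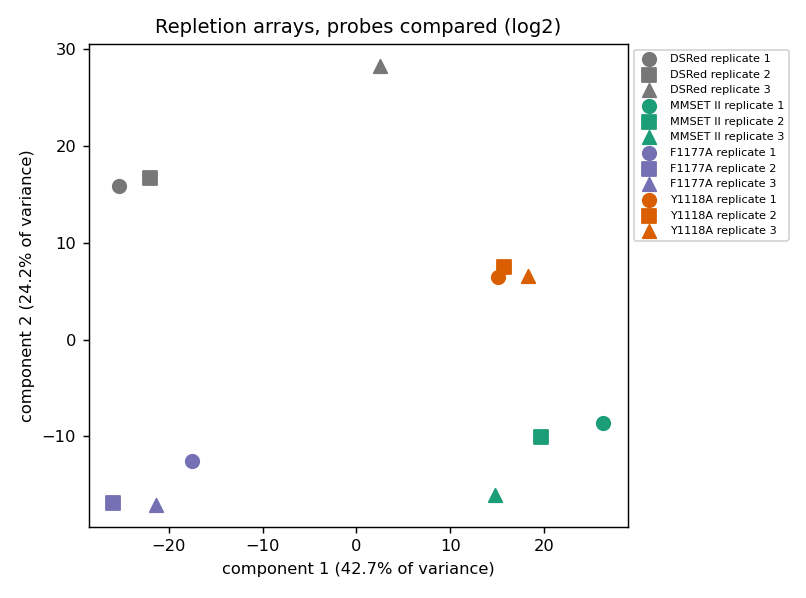
Principal components of the 12 repletion arrays over the 11743 probes (log2 intensity), with component 1 on the x axis, component 2 on the y axis, colours for the groups and marker shapes for the replicates. The Y1118A arrays lie close together at 15.1 to 18.3 on component 1, and DSRed replicate 3 lies at 2.5, away from DSRed replicates 1 and 2 at -25.3 and -22.

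RNA of NSD2 itself did not separate the groups at the only probe that detected it. Of 4 NSD2 probes, 3 were detected on none of the 18 arrays of the series. The remaining probe read 5.66, 5.68 and 5.63 (normalised log2 intensity) on the DSRed arrays and 5.55, 5.93 and 5.90 on the Y1118A arrays. The groups overlapped, and the log2 difference of 0.14 (SE 0.133) was not called (limma adjusted p = 0.474). The lowest detected signal of these arrays was 5.16 to 5.52, so the probe was read near the floor, where differences are understated. It was not called with MMSET II or F1177A against DSRed either (-0.03 and 0.11), and was lower with +DOX than with no DOX (-0.7, limma adjusted p = 0.000408). The probe therefore does not show whether NSD2 was restored. The probe was detected on all 6 arrays, so RNA at its position was still present in cells labelled knock-outs, and no source used here places the probe inside or outside the retroviral construct, so the label is not checked by it. The receptor kinase FGFR3, the neighbour on the translocated segment, was bright in both groups (14.14 ± 0.05 with DSRed and 14.27 ± 0.03 with Y1118A, log2, SD, n = 3) and not called (adjusted p = 0.189). Its arrays did not overlap between the groups, and with array brightness as a covariate FGFR3 was called higher (0.17, limma adjusted p = 0.0477). Of 5 measured members of a list of genes near NSD2 on chromosome 4, only MXD4, a repressor that competes with MYC for its partner MAX, was called (-0.55, SE 0.135, limma adjusted p = 0.00512). Defining plasma cell markers were present in both groups (7 of 9 detected, with CD38 and SLAMF7 on no array), and those of earlier B cells (0 of 3) and T cells (0 of 3) were not detected. Plasma cell markers summed to 18730 to 41240 intensity units on the DSRed arrays and 19530 to 21270 on the Y1118A arrays. All sums in this paragraph are of deposited intensities before normalisation, so differences in array brightness enter them. The 95th percentile of intensity was 453.5 to 1033 on the DSRed arrays and 746.5 to 775 on the Y1118A arrays. The sums therefore do not show whether single markers differed, and plasma cell genes are given below after normalisation. Of the fibroblast markers only PDGFRB (1 of 6) and of the epithelial markers only EPCAM (1 of 4) were detected on any of the 6 arrays. Fibroblast markers summed to 6.6 to 47.8 with DSRed and 43.4 to 53.8 with Y1118A, and epithelial markers to 0 to 20.1 and 29.2 to 33.4. EPCAM itself was detected on no DSRed array and on all 3 Y1118A arrays, through which alone it is among the probes compared. Its Y1118A mean of 5.35 lay too near the detection limit of the DSRed arrays for a fold to be given (limma adjusted p = 0.000898). EPCAM was brighter in the other groups of this line, with means of 7 with MMSET II, 6.27 with F1177A, 9.94 with no DOX and 10.15 with +DOX. Its signal is thus not particular to Y1118A. Of the monocyte markers CD68 was detected on all 6 arrays and LYZ on 2 DSRed arrays (2 of 4), and their sum was 128.7 to 150.1 with DSRed and 134.4 to 156.6 with Y1118A. The endothelial marker PECAM1 (1 of 3) was detected on 2 arrays of each group, with sums of 13.9 to 28.9 and 13.6 to 27.4. The erythroid marker HBB (1 of 3) was detected on all 6 arrays, with sums of 23.4 to 68.7 and 32.2 to 41.8. The part of these markers in the results below was not tested.

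Between Y1118A and DSRed, 3359 of the 11743 probes were called (28.6%), where called means an adjusted p under 0.05 in a limma model over all 18 arrays. Of these, 1785 were higher (15.2%) and 1574 lower (13.4%). A change of at least 2-fold was called for 134 probes upwards (1.14%) and 83 downwards (0.707%). Among the 10288 probes detected on all 6 arrays, 2916 were called (28.3%), 1448 of them higher. Another 221 probes were detected on all 3 Y1118A arrays and on no DSRed array, and 44 the other way round. These 221 and 44 probes are among the 11743 only through the group that detected them. Their presence here thus depends on the difference itself, and their calls are no separate support for it. The arrays of the 2 groups did not overlap for 5301 probes (45.1%). Counted by named gene, 1377 of 8058 were higher (17.1%) and 1017 lower (12.6%), with a median log2 difference of 0.03 over all of them. Without DSRed replicate 3 the calls rose to 4720 (40.2%), with 2460 higher (20.9%) and 2260 lower (19.2%). Of the 3359 calls, 3161 were also called without that array and 198 were not, while 1559 probes were called only without it. The calls fell to 2093 without DSRed replicate 1, 2134 without DSRed replicate 2 and 2229 without Y1118A replicate 3, and those of at least 2-fold went from 217 to 383 without DSRed replicate 3.

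The genes with the largest rises, ranked by fitted difference, included several that bind actin or the cell membrane. TMSB15A, a thymosin that binds actin monomers, read 6.95, 6.83 and 7.23 on the DSRed arrays and 9.70, 9.78 and 9.72 on the Y1118A arrays. Every Y1118A array lay above every DSRed array, and the log2 difference was 2.73 (SE 0.153, limma adjusted p = 4.85e-10). The near-identical gene TMSB15B rose by 2.08 at its brightest probe and by 2.09 and 0.09 at 2 others, so signal of the pair cannot be assigned to 1 of them with certainty. MARCKS, a protein kinase C substrate that ties actin to the membrane, read 6.82, 6.77 and 6.92 with DSRed and 9.10, 8.95 and 9.08 with Y1118A (2.21, SE 0.0987, adjusted p = 2.01e-11). Its relative MARCKSL1 rose by 1.5 (SE 0.186). PLS3, an actin-bundling plastin, read 5.56, 5.42 and 5.86 with DSRed and 7.50, 7.57 and 7.59 with Y1118A (1.94, SE 0.109), with 1.25 at its other probe. The actin cytoskeleton list, which holds TMSB15A, MARCKS and MARCKSL1 but not TMSB15B or PLS3, had 9 of 23 members higher and 0 lower (10 and 0 without DSRed replicate 3), with a median of 0.20. Of all genes 17.1% were higher and 12.6% lower.

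MYOF, which encodes the membrane repair protein myoferlin, was detected on no DSRed array (4.35, 4.48 and 4.75) and on every Y1118A array (7.32, 7.27 and 7.07). It was at least 3.60-fold higher (limma adjusted p = 2.01e-11), where the bound sets the Y1118A mean against the lowest detected signal of the DSRed arrays. MYOF, like the other genes here detected on no DSRed array, is among the probes compared only through its Y1118A arrays. A second MYOF probe differed by 0.97. HERC5, a ligase that attaches the interferon-induced modifier ISG15 to proteins, read 6.26, 6.17 and 6.36 with DSRed and 8.88, 8.91 and 8.82 with Y1118A (2.61, SE 0.12). In the interferon-stimulated list 2 of 15 members rose and 3 fell (1 fell without DSRed replicate 1, and 3 rose and 4 fell without DSRed replicate 3). Of all genes 17.1% rose and 12.6% fell, not far from those counts. S100A10, the partner of annexin A2 at the membrane, read 6.64, 6.84 and 6.75 with DSRed and 8.47, 8.60 and 8.68 with Y1118A (1.84, SE 0.187). The homeobox transcription factor MSX1 rose by 1.97 (SE 0.199), although its DSRed arrays spread from 5.08 to 5.92. RAB23, a small GTPase that restrains Hedgehog signalling, rose by 1.94 (SE 0.14) and differed by 1.02 at its other probe. The remaining 3 of the 12 largest rises were detected on no DSRed array, namely CTDSPL, a phosphatase that acts on RB (at least 2.22-fold), SLC16A9, a monocarboxylate transporter (at least 2.32-fold), and the transcription factor DACH1 (at least 2.30-fold).

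The 12 largest falls by fitted difference included HSPA6, the strictly stress-inducible member of the HSP70 family, whose place among them is not fixed because only a bound can be given. HSPA6 read 6.66, 7.02 and 6.75 on the DSRed arrays and 4.60, 4.49 and 4.52 on the Y1118A arrays, on none of which it was detected. It was at least 3-fold lower (limma adjusted p = 1.05e-09), and is among the probes compared only through its DSRed arrays. ALDOC, an aldolase of glycolysis, read 10.26, 10.36 and 9.74 with DSRed and 8.36, 8.39 and 8.15 with Y1118A (-1.82, SE 0.188). LGMN, a lysosomal protease, read 11.67, 11.53 and 11.24 with DSRed and 9.96, 9.96 and 9.97 with Y1118A (-1.52, SE 0.106). In each of these 3 genes the groups were well apart, and DSRed replicate 3 was the DSRed array nearest to Y1118A in ALDOC and LGMN. ISG20, an interferon-induced exonuclease, fell by 1.57 on the log2 scale (SE 0.111). INHBE, an activin subunit, fell by 1.77 on the log2 scale (SE 0.222). The other 7 are described beside the amino acid response and sterol genes. All 24 genes were selected as large called differences among genes whose arrays did not overlap, so leaving out 1 array cannot change their direction. Each kept its call when any 1 of the 6 arrays was left out.

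**Figure D2:**
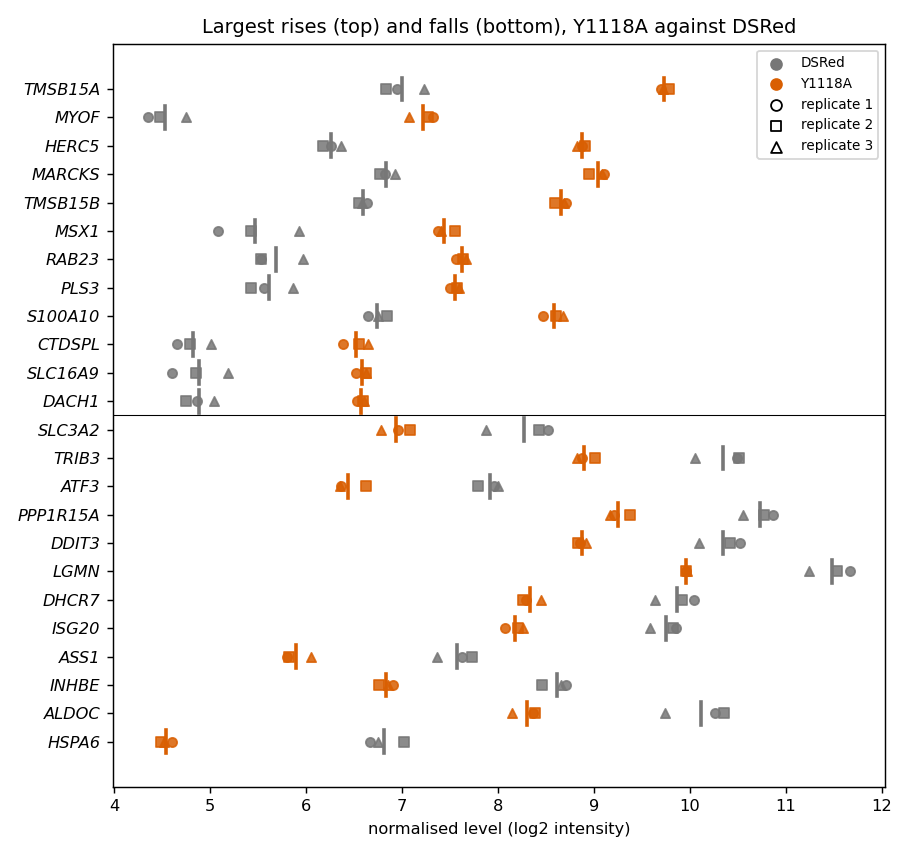
Normalised log2 intensity (x axis) of the 12 genes with the largest rises (top) and the 12 with the largest falls (bottom), with a marker shape per replicate and bars at the group means. TMSB15A moved from a mean of 7.0 to 9.73, and HSPA6 from 6.81 to values at which it was not detected.

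Genes of cholesterol synthesis fell with Y1118A. Of 24 measured members of the sterol and fatty acid synthesis list, 18 fell and 1 rose, against 12.6% and 17.1% of all genes, and the list's median was -0.65 against 0.03. Without DSRed replicate 3 there were 17 falls and 1 rise, with a median of -0.64. DHCR7, the last enzyme of cholesterol synthesis, read 10.04, 9.92 and 9.64 on the DSRed arrays and 8.29, 8.26 and 8.45 on the Y1118A arrays (-1.53, SE 0.155, limma adjusted p = 1.5e-06). HMGCS1, which makes HMG-CoA at the start of the pathway, read 10.01, 10.07 and 9.93 with DSRed and 9.10, 8.96 and 9.08 with Y1118A (-0.96, SE 0.161). Mevalonate kinase, MVK, read 6.64, 6.56 and 6.27 against 5.62, 5.33 and 5.56 (-0.99, SE 0.22). The groups of all 3 genes were separate, with DSRed replicate 3 lowest among the DSRed arrays. MVD, the decarboxylase of the same branch, fell by 0.99 on the log2 scale (SE 0.203). The enzymes that build the fatty acid chain did not pass the test: FASN (-0.30, adjusted p = 0.0826), ACACA (0.06, adjusted p = 0.778), ACLY (0.08, adjusted p = 0.605) and ELOVL6 (-0.16, adjusted p = 0.522). They are named after their values were seen, as are the desaturases SCD (-0.96) and FADS1 (-0.61), which fell, and the mevalonate pathway kinase PMVK (-0.27, adjusted p = 0.294), which was not called. The single rise, HSD17B7 (0.42, adjusted p = 0.0445), lost its call without any one of the other arrays (DSRed replicate 3 apart). INSIG1, which restrains the sterol-sensing transcription factors, was lower at its brightest probe (-0.46) and at another (-1.49), and SREBF1, which encodes one of those factors, fell by 0.95 on the log2 scale.

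The same genes were then compared between Y1118A and the other forms. Against Y1118A, 16 of the 24 genes were higher and 0 lower with MMSET II (median 0.59), where 7.97% of all genes were higher and 10.1% lower, and 18 were higher and 0 lower with F1177A (median 0.79), where 16.6% were. The same 3 Y1118A arrays enter these comparisons and the one with DSRed, so genes that were low on them read higher against them in each, also where the other form does not differ from DSRed. That holds for every comparison of the forms below. The F1177A arrays were also dimmer, with a 95th percentile of intensity of 368.5 to 493.1 against 746.5 to 775 for Y1118A. With brightness as a covariate the called probes fell from 4275 to 1307 with F1177A and rose from 1994 to 3044 with MMSET II. The list counts between the forms were not repeated in that setting. HMGCS1 was 1.43 higher with MMSET II (adjusted p = 3.71e-06) and 1.64 higher with F1177A (adjusted p = 6.03e-07), and DHCR7 was 1.25 and 1.48 higher (adjusted p = 1.29e-05 and 1.4e-06). FADS1 was 1.10 and 1.04 higher.

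**Figure D3:**
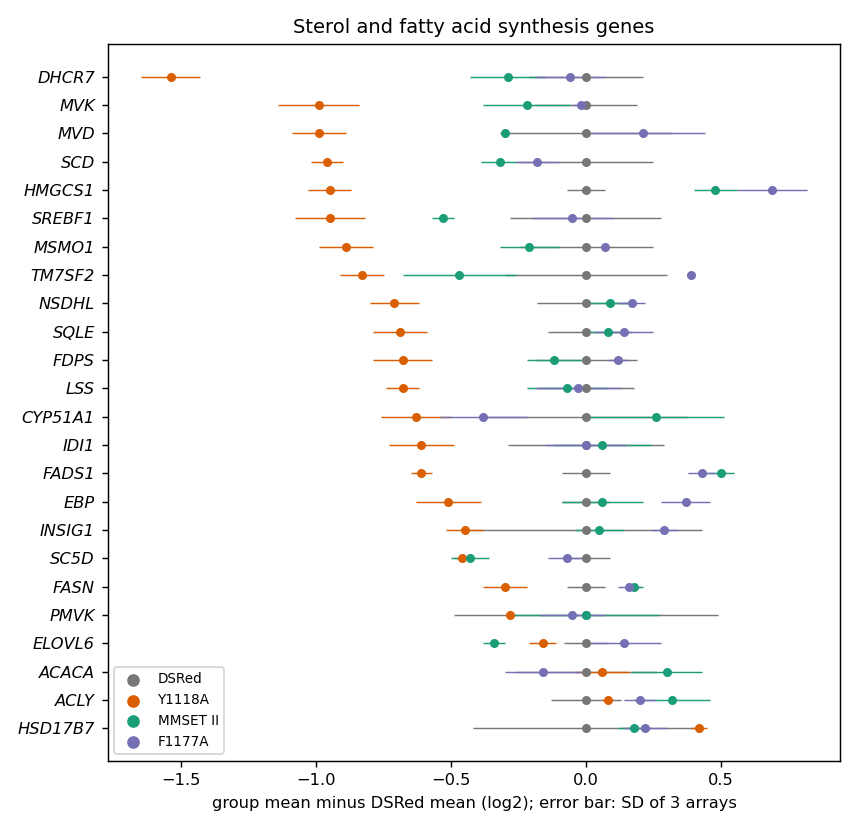
Mean level of each of the 24 sterol and fatty acid synthesis genes in the 4 repletion groups, as the difference from the DSRed mean (x axis, log2), with the SD of 3 arrays as error bars and the genes ordered by their fall with Y1118A. The Y1118A means lie furthest to the left in DHCR7 (-1.53) and to the right of DSRed in HSD17B7 (0.42).

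Promoters of the lists that moved most were read for the letters of motifs known from their pathways, in 27305 RefSeq promoters (GRCh38.p14), each from 250 bases before to 50 bases after a gene's start, on both strands. The sterol response element was searched as TCACNCNAC, which 2 of the 22 sterol genes with a promoter in the table held (9.09%, against 2.57% of all promoters), FDPS and HSD17B7. The composite element of C/EBP and ATF factors was searched as TGATGNAA, held by 6 of 24 genes of the ATF4 list (25%, against 3.67%). The E2F site was searched as TTTNGCGC, held by 10 of 31 genes of the G1/S list (32.3%, against 1.83%). Motif letters were chosen with the results known, and a match is a description of the sequence only. The promoter of FDPS, farnesyl diphosphate synthase, is shown as the only one with a match among the sterol genes that fell. Those of ASNS and ATF3 are shown as matches among the amino acid response genes that fell, and those of POLE2 and MCM3 among the replication genes that rose. Capitals mark the matched letters.
FDPS, chr1:155308616-155308915, plus strand: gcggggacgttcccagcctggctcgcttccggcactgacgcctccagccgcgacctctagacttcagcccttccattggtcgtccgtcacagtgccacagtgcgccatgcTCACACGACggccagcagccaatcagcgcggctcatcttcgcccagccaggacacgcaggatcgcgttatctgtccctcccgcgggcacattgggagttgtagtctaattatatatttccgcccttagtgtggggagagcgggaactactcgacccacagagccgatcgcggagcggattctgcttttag
ASNS, chr7:97872359-97872658, minus strand: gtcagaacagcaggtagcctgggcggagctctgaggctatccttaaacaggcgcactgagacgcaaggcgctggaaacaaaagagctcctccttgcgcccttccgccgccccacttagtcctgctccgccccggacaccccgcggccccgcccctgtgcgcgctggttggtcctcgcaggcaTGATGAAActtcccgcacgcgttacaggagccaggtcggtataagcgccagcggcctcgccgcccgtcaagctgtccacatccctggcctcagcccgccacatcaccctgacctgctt
ATF3, chr1:212565157-212565456, plus strand: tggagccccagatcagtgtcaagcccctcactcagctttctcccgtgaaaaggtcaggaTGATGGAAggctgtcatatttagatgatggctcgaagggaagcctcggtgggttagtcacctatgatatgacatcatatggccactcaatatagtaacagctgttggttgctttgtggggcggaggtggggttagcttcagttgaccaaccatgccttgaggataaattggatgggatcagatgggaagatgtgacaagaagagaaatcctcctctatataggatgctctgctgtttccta
POLE2, chr14:49688165-49688464, minus strand: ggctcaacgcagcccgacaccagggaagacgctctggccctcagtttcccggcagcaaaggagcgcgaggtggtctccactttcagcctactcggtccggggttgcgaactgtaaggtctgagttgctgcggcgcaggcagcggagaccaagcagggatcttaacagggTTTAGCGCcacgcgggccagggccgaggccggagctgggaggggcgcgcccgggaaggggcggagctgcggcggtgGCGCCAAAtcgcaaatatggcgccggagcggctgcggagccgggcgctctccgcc
MCM3, chr6:52284693-52284992, minus strand: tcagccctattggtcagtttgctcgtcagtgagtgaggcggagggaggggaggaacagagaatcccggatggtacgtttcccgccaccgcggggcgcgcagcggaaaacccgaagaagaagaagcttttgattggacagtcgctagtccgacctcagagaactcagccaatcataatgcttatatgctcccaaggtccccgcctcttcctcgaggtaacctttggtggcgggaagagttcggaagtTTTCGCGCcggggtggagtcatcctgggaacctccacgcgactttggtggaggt
The match begins 140 bases before the start in FDPS, 68 before in ASNS and 191 before in ATF3. In POLE2 there are 2 matches, 1 on each strand, and in MCM3 the match begins 4 bases before the start and extends past it. FDPS read 9.88, 9.95 and 9.60 with DSRed and 9.03, 9.13 and 9.25 with Y1118A (-0.68, SE 0.158, limma adjusted p = 0.00393).

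Genes of the amino acid response, which the transcription factor ATF4 drives when amino acids run short or the endoplasmic reticulum is stressed, fell together. Of 26 measured members 17 fell and 0 rose, with a median of -0.58 (15 and 0 without DSRed replicate 3, median -0.54). Of all genes 12.6% fell and 17.1% rose. The transcription factor gene ATF3 read 7.96, 7.79 and 8.0 on the DSRed arrays and 6.36, 6.62 and 6.35 on the Y1118A arrays (-1.47, SE 0.298, limma adjusted p = 0.00137). DDIT3, the stress factor CHOP, read 10.52, 10.42 and 10.09 with DSRed and 8.85, 8.83 and 8.92 with Y1118A (-1.48, SE 0.387). TRIB3, a pseudokinase induced by it, read 10.49, 10.51 and 10.05 against 8.87, 9.01 and 8.82 (-1.45, SE 0.212). All 3 regulators were lower on every Y1118A array than on any DSRed array. ASS1, the argininosuccinate synthase that makes arginine, read 7.62, 7.73 and 7.36 with DSRed and 5.80, 5.82 and 6.05 with Y1118A (-1.68, SE 0.19), with the same difference at its other probe. ASNS, asparagine synthetase, read 11.73, 11.74 and 11.63 against 10.80, 10.83 and 10.84 (-0.88, SE 0.139). SLC3A2, the heavy chain of amino acid transporters, fell by 1.33 on the log2 scale (SE 0.297), and PPP1R15A, a stress gene outside the list that restores translation, fell by 1.48 (SE 0.26). ATF4 itself was measured and not called. In MMSET II against Y1118A 2 of the 26 members were called higher and 0 lower, and in F1177A against Y1118A 8 were higher and 0 lower. Of all genes 7.97% were higher in the first comparison and 16.6% in the second.

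Genes of the unfolded protein response and of folding in the endoplasmic reticulum also fell, 9 of 22 with 0 rises and a median of -0.46 (10 and 0 without DSRed replicate 3). Of all genes 12.6% fell and 17.1% rose. DNAJB9, a chaperone partner in that compartment, read 8.95, 9.02 and 9.36 on the DSRed arrays and 7.86, 7.91 and 7.89 on the Y1118A arrays (-1.22, SE 0.256, limma adjusted p = 0.00176). HYOU1, another chaperone, fell by 0.93 on the log2 scale (SE 0.26), the degradation ligase SYVN1 by 0.91 (SE 0.252) and EDEM1, which delivers misfolded glycoproteins for degradation, by 0.90 (SE 0.176). The main chaperone HSPA5 and the transcription factor XBP1 were not called. Neither MMSET II (0 higher, 0 lower) nor F1177A (1 higher, 1 lower) differed from Y1118A in more than 1 gene each way in this list. Of all genes 7.97% were higher and 10.1% lower with MMSET II, and 16.6% and 21.3% with F1177A.

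Plasma cell genes fell as well, 11 of 17 with 1 rise and a median of -0.39 (10 and 1 without DSRed replicate 3). Of all genes 12.6% fell and 17.1% rose. The antibody joining chain JCHAIN read 11.88, 11.91 and 12.15 on the DSRed arrays and 10.82, 10.74 and 11.02 on the Y1118A arrays (-1.12, SE 0.103, limma adjusted p = 3.99e-07). FKBP11, a folding enzyme of secretory cells, fell by 1.09 on the log2 scale (SE 0.105), and MZB1, which assists immunoglobulin assembly, by 0.98 (SE 0.107). DERL3, a component of endoplasmic reticulum degradation, fell by 0.89 (SE 0.22). PRDM1, the plasma cell transcription factor, was called higher at its brightest probe (0.47) but lay at -0.06, -0.16 and -1.22 at 3 others, and the call was lost without DSRed replicate 1 or 2 or without Y1118A replicate 3. JCHAIN was 0.68 higher with MMSET II than with Y1118A (adjusted p = 0.000109), and the list as a whole had 4 genes higher and 2 lower in that comparison. Of all genes 7.97% were higher and 10.1% lower in it. Of 3 measured genes of earlier B-cell stages 2 rose, SPIB (0.79, SE 0.2) and BACH2 (0.75, SE 0.172), each detected on 1 DSRed array. The third, CD72, a receptor that inhibits B-cell signalling, was -0.52 (SE 0.209, limma adjusted p = 0.0719) with groups that did not overlap, and was called lower under cyclic loess, median scaling, array weights, brightness as a covariate, and with the compared groups normalised or modelled alone. SPIB lost its call without DSRed replicate 1 (0.61, adjusted p = 0.0542).

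Genes of DNA replication rose. In the G1/S and DNA replication list, 26 of 35 members were higher and 0 lower, with a median of 0.54, against 17.1% of all genes higher and a median of 0.03. Without DSRed replicate 3 the counts were 23 and 0 and the median 0.51. The number higher was 18 without Y1118A replicate 1 or 2, 20 without DSRed replicate 2 and 21 without DSRed replicate 1, with 0 lower in each. CCNE1, the cyclin that starts S phase, read 7.03, 7.0 and 6.63 on the DSRed arrays and 8.02, 8.12 and 8.15 on the Y1118A arrays (1.21, SE 0.191, limma adjusted p = 0.000142). MCM3, a subunit of the replicative helicase, read 10.79, 10.78 and 10.84 with DSRed and 11.84, 11.59 and 11.74 with Y1118A (0.92, SE 0.106). POLE2, a subunit of DNA polymerase epsilon, read 6.96, 6.85 and 7.35 against 7.95, 8.07 and 8.0 (0.95, SE 0.147). In all of these the groups were separate, but DSRed replicate 3 was the highest DSRed array in MCM3 and POLE2 and the lowest in CCNE1. MCM10, which loads polymerase at origins, rose by 0.94 (SE 0.142), with 0.79 at its other probe. Of the 10 members with an E2F letter match, every one was called higher, as were 13 of the 21 members with a promoter and no match. In the ATF4 list 4 of 6 genes with the composite element were called, and 13 of 18 without it. In the sterol list both genes with a match were called, FDPS lower and HSD17B7 higher, and 16 of 20 without it. F1177A differed from Y1118A for 9 members of the G1/S list (3 higher, 6 lower), and MMSET II for 4 (2 higher, 2 lower). Of all genes 16.6% were higher and 21.3% lower with F1177A, and 7.97% and 10.1% with MMSET II.

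Some mitosis and DNA repair genes were also higher, read against the 17.1% of all genes that were. In the mitosis and G2/M list, 11 of 32 members were higher and 0 lower, with a median of 0.29 (14 and 0 without DSRed replicate 3, and 7 and 0 without DSRed replicate 1, DSRed replicate 2 or Y1118A replicate 3, near the share of all genes). CENPF, a kinetochore protein, read 7.82, 8.02 and 8.13 on the DSRed arrays and 8.90, 8.76 and 8.71 on the Y1118A arrays (0.80, SE 0.117, limma adjusted p = 6.84e-05). MMSET II was lower than Y1118A for 7 of these genes and higher for 0, where 10.1% and 7.97% of all genes were. CENPF was among the 7 (-0.53, limma adjusted p = 0.00322). Of 20 DNA repair genes, 5 rose and 1 fell (7 and 2 without DSRed replicate 3), a share of rises not far from that of all genes, with the mismatch repair factor MSH6 at 0.84 (SE 0.104) and the exonuclease EXO1 at 0.94 (SE 0.11, with 0.22 at its other probe). Cyclins and CDK inhibitors had 5 of 14 higher and 1 lower (7 and 2 without DSRed replicate 3, and 3 higher without DSRed replicate 2 or Y1118A replicate 3), among them CCND3 (0.60, SE 0.112), which drives the G1 phase with its kinases, and CDK2 (0.55, SE 0.145), with 0.03 at another probe. The inhibitor CDKN1B read lower (-0.35, SE 0.117, adjusted p = 0.0309), a call lost without any of DSRed replicates 1 and 2 and Y1118A replicates 1 and 3.

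Enzymes that write chromatin marks rose in part. Of 30 Polycomb, DNA methylation and other modifier genes, 12 were higher and 0 lower, with a median of 0.20 (13 and 1 without DSRed replicate 3). Of all genes 17.1% were higher and 12.6% lower. CBX2, a Polycomb subunit that binds methylated histone H3, read 7.76, 7.90 and 7.79 on the DSRed arrays and 9.09, 9.10 and 9.01 on the Y1118A arrays (1.25, SE 0.155, limma adjusted p = 1.36e-05). DNMT1, the maintenance DNA methyltransferase, read 10.84, 10.86 and 10.94 with DSRed and 11.69, 11.72 and 11.73 with Y1118A (0.83, SE 0.0924). SMYD3, a lysine methyltransferase, rose by 0.95 (SE 0.115). All 3 were higher on every Y1118A array. F1177A was lower than Y1118A for 13 and higher for 3 of the 30, where 21.3% and 16.6% of all genes were. Among 5 measured H3K36 methylation enzymes 1 was called, the demethylase KDM2B (0.60, SE 0.117). In the histone gene list 7 of 25 were lower and 3 higher, with a median of -0.17, and the number lower was 4 without any one of the arrays other than DSRed replicate 3 (8 without that one). H4C8 had the largest difference in that list (-1.13, SE 0.272).

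Proteasome subunits and cytosolic chaperones rose in part. Of 24 proteasome subunits 12 were higher and 0 lower, with a median of 0.30 (16 and 1 without DSRed replicate 3). The number higher was 8 without DSRed replicate 1 or 2 or Y1118A replicate 1 or 3, and 6 with no detection filter. Of all genes 17.1% were higher and 12.6% lower. PSMD1, the scaffold of the regulatory particle, read 9.53 on all 3 DSRed arrays and 10.20, 10.12 and 10.21 on the Y1118A arrays (0.65, SE 0.0885, limma adjusted p = 3.57e-05). PSMA6, a core subunit, read 10.60, 10.72 and 11.23 with DSRed and 11.40, 11.44 and 11.47 with Y1118A (0.59, SE 0.119). The DSRed spread of PSMA6 came from replicate 3, without which its difference was 0.78. Of 16 heat shock proteins 7 were higher and 1 lower (the same without DSRed replicate 3), a list that does not hold HSPA6, which fell, with the co-chaperone CHORDC1 at 1.06 (SE 0.149), the constitutive HSPA8 at 0.89 (SE 0.161) and HSPH1, its exchange factor, at 0.70 (SE 0.141). HSP90AA1 read 12.02, 12.13 and 12.89 on the DSRed arrays, the last being replicate 3, and 13.15, 13.06 and 13.04 on the Y1118A arrays (0.73, SE 0.17). Against Y1118A, F1177A was lower for 16 of the 24 proteasome subunits and higher for 0, and lower for 9 of the 16 heat shock proteins and higher for 0, where 21.3% of all genes were lower. Of 27 subunits of the respiratory chain 5 were higher and 0 lower, with a median of 0.12 (8 and 2 without DSRed replicate 3), a share of rises near the 17.1% of all genes. The strongest were COX7B (0.61, SE 0.142) and NDUFB3 (0.53, SE 0.104).

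Membrane and adhesion genes moved both ways. Of 9 genes reported high in t(4;14) myeloma 5 were higher and 0 lower, with a median of 0.44 (the same counts without DSRed replicate 3). The number higher was 4 without DSRed replicate 1 or 2 or Y1118A replicate 1 or 3. Of all genes 17.1% were higher and 12.6% lower. SERPINE2, a secreted protease inhibitor, read 7.39, 7.41 and 7.42 on the DSRed arrays and 8.66, 8.59 and 8.70 on the Y1118A arrays (1.24, SE 0.0936, limma adjusted p = 3.08e-08). CDH2, the adhesion protein N-cadherin, read 5.93, 5.65 and 5.49 with DSRed and 6.69, 6.86 and 6.83 with Y1118A (1.10, SE 0.159). Both were higher on every Y1118A array. Adhesion genes had 4 of 13 higher and 1 lower (5 and 1 without DSRed replicate 3), with the integrin ITGB1 at 1.12 (SE 0.0952, with 0.42 at its other probe) and ICAM2, a ligand of leukocyte integrins, at -0.84 (SE 0.12). Of 9 S100 proteins and annexins 4 rose and 3 fell (4 and 4 without DSRed replicate 3, and only 2 rose without any one of the other arrays). S100A4 and S100A11 fell, with log2 differences of -0.58 (SE 0.107) and -0.54 (SE 0.122), while S100A10 rose. Among collagen-modifying enzymes P4HA1 fell by 1.19 on the log2 scale (SE 0.144) and PLOD2 rose by at least 1.12-fold, being detected on no DSRed array, with 3 of 10 lower and 1 higher in that list (the same without DSRed replicate 3).

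Antigen presentation genes, brakes of PI3K signalling and lysosome genes fell in part. Of 17 antigen presentation genes 7 were lower and 1 higher (9 and 1 without DSRed replicate 3, 0 higher without DSRed replicate 1 or 2 or Y1118A replicate 1 or 2, and 4 lower without DSRed replicate 1 or without Y1118A replicate 1 or 3). Of all genes 12.6% were lower and 17.1% higher. HLA-F, a non-classical class I chain, read 11, 10.96 and 10.33 on the DSRed arrays and 9.80, 9.88 and 9.77 on the Y1118A arrays (-0.95, SE 0.137, limma adjusted p = 5.87e-05), with -0.39 at its other probe. HLA-G and HLA-E fell by 0.89 and 0.69 on the log2 scale, and probes of these related genes may share signal. F1177A was higher than Y1118A for 12 of the 17 and lower for 0, where 16.6% and 21.3% of all genes were. Of 19 genes that brake PI3K signalling or mark FOXO activity 8 were lower and 1 higher (8 and 2 without DSRed replicate 3, and 5 lower without DSRed replicate 1, DSRed replicate 2 or Y1118A replicate 3). PIK3IP1, an inhibitor of that kinase, read 8.71, 8.61 and 8.39 with DSRed and 7.25, 7.33 and 7.28 with Y1118A (-1.29, SE 0.13). Of this list, 7 genes were lower and 1 higher with MMSET II than with Y1118A, where 10.1% and 7.97% of all genes were. With F1177A 11 were higher and 1 lower than with Y1118A, where 16.6% and 21.3% of all genes were. PIK3IP1 differed from Y1118A by -0.72 with MMSET II and 1.86 with F1177A (limma adjusted p = 0.000677 and 9.02e-09). Of 23 lysosome and autophagy genes 6 were lower and 0 higher (8 and 0 without DSRed replicate 3), led by the autophagy receptor SQSTM1 (-1.06, SE 0.216). The number lower was 4 without DSRed replicate 1, Y1118A replicate 1 or Y1118A replicate 2, near the share of all genes.

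Glycolysis and hypoxia genes were mixed, with 4 of 28 higher and 10 lower and a median of -0.12 (6 and 11 without DSRed replicate 3, and 2 higher without any of the other arrays). Of all genes 17.1% were higher and 12.6% lower. The MYC, NF-kB, BCL2 and ERK counts below are not far from those shares. VEGFA, the angiogenic factor, read 8.42 and 8.36 on DSRed replicates 1 and 2, 7.03 on replicate 3, and 6.85, 6.93 and 6.80 on the Y1118A arrays, so its difference of -1.08 (SE 0.262) grew to -1.53 without replicate 3. Of 25 MYC and ribosome biogenesis genes 2 were higher and 4 lower (1 lower without DSRed replicate 1 or 2, 2 without Y1118A replicate 1, and 6 lower without DSRed replicate 3), with MYCN, a MYC family factor, at 0.86 (SE 0.125) and RRP12, a ribosome assembly factor, at -0.75 (SE 0.146). In that list 13 genes were higher and 0 lower with MMSET II than with Y1118A, where 7.97% of all genes were higher and 10.1% lower. NF-kB pathway genes had 3 of 18 higher and 2 lower (5 lower without DSRed replicate 3), with CD83 at 0.77 (SE 0.143) and BCL3 at 0.75 (SE 0.122). Of 10 BCL2 family members 1 was higher and 2 lower (0 higher without DSRed replicate 1, DSRed replicate 2 or Y1118A replicate 2, and 1 lower without either of the last 2), among them PMAIP1, the death promoter NOXA, at -0.90 (SE 0.166, with -0.35 at its other probe). Of 7 ERK feedback and target genes 1 was called (2 without DSRed replicate 3), the transcription factor ETV5 (0.92, SE 0.151).

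**Figure D4:**
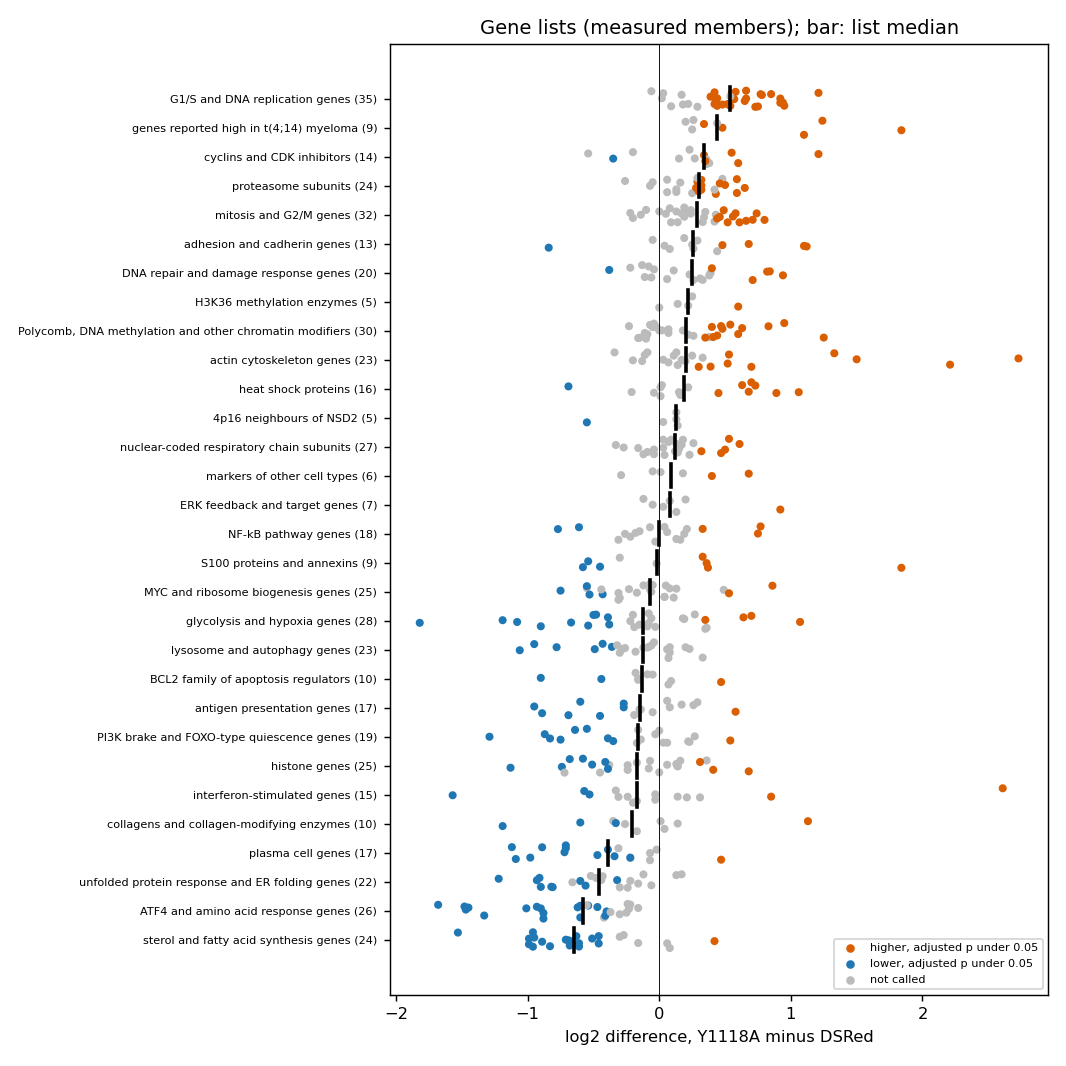
Log2 difference, Y1118A minus DSRed (x axis), of every measured member of the 30 lists with at least 5 members, numbers of members in brackets, ordered by list median (black bar), with called rises in orange and called falls in blue. Medians run from -0.65 for sterol and fatty acid synthesis genes to 0.54 for G1/S and DNA replication genes.

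Single genes also differed between the forms of MMSET. In MMSET II against Y1118A 1994 of the 11743 probes were called (17%), 889 higher (7.57%) and 1105 lower (9.41%). In F1177A against Y1118A 4275 were called (36.4%), 1919 higher (16.3%) and 2356 lower (20.1%). The 95th percentile of intensity was 368.5 to 493.1 on the F1177A arrays and 746.5 to 775 on the Y1118A arrays, and with brightness as a covariate the F1177A comparison fell to 1307 calls and the MMSET II comparison rose to 3044. Modelled with the compared groups alone they had 6580 and 4243 calls, and the MMSET II comparison had 1274 without Y1118A replicate 1. MARCKS was high with Y1118A (9.04 ± 0.08, SD, n = 3) and F1177A (8.47 ± 0.07) but not with MMSET II (6.08 ± 0.08), a difference of -2.96 from Y1118A (adjusted p = 1.38e-13). ADM, which encodes the vasodilator peptide adrenomedullin, read 7.16, 7.20 and 7.05 on the DSRed arrays and 8.20, 8.18 and 8.24 on the Y1118A arrays, and 5.28 ± 0.15 with MMSET II, where 2 arrays detected it, and 5.04 ± 0.28 with F1177A, where none did. ADM was thus higher with Y1118A than with DSRed (1.07, SE 0.143) while MMSET II was -2.93 from Y1118A and F1177A at least 7.51-fold lower (limma adjusted p = 4.41e-11 and 1.97e-11). LAMP5, a lysosome-associated membrane protein, was detected on 1 MMSET II array and no F1177A array, and read 7.51 ± 0.09 with Y1118A against 6.43 ± 0.25, 5.10 ± 0.16 and 4.79 ± 0.10 with DSRed, MMSET II and F1177A. DACH1 was 1.44 and 1.30 lower with MMSET II and F1177A than with Y1118A, where it was detected on 2 arrays and 1 array and read 5.13 and 5.27 against 6.57.

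Further genes differed between Y1118A and 1 or both of the other forms, and some were called in neither comparison. TMSB15A and HERC5 were not called between the forms (adjusted p = 0.495 and 0.644 with MMSET II, 0.19 and 0.999 with F1177A). S100A10 rose with Y1118A to 8.58 ± 0.10 but read 10.82 ± 0.07 with MMSET II and 10.41 ± 0.09 with F1177A, differences of 2.24 and 1.83 (adjusted p = 8.28e-08 and 9.91e-07). CDH2 was 1.75 and 0.79 higher with these forms, and GALNT18, a glycosyltransferase, 2.10 and 1.93 higher. The chemokine CCL3 read 5.94, 5.96 and 5.81 on the DSRed arrays and 5.08, 5.28 and 5.04 on the Y1118A arrays, 1 of which detected it, and, with MMSET II, 8.25 ± 0.10 (3.11 from Y1118A, adjusted p = 4.41e-11). The near-identical CCL3L3 differed by 3.63, and SNAR-A1, a small noncoding RNA, by 3.48 from MMSET II. MYOF read 7.14 ± 0.14 with MMSET II, not called against Y1118A (adjusted p = 0.72), while F1177A read 4.32 ± 0.04 and was detected on no array, at least 3.79-fold lower than Y1118A (limma adjusted p = 9.81e-12). HSPA6, detected on no Y1118A array, read 6.83 ± 0.06 with F1177A, at least 3.03-fold higher than with Y1118A, and 5.27 ± 0.16 with MMSET II, where it was detected on 2 arrays and it was at least 1.04-fold higher. ACSS2, which makes acetyl-CoA from acetate, was 2.25 higher with F1177A and 1.25 with MMSET II, having fallen by 1.06 on the log2 scale with Y1118A. HBD, the delta globin gene, was 2.13 lower with F1177A and NRCAM, a neural adhesion molecule, 2.13 lower, each called higher with Y1118A than with DSRed (0.52 and 0.66), though HBD lost its call without DSRed replicate 3 (0.46, adjusted p = 0.0693).

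**Figure D5:**
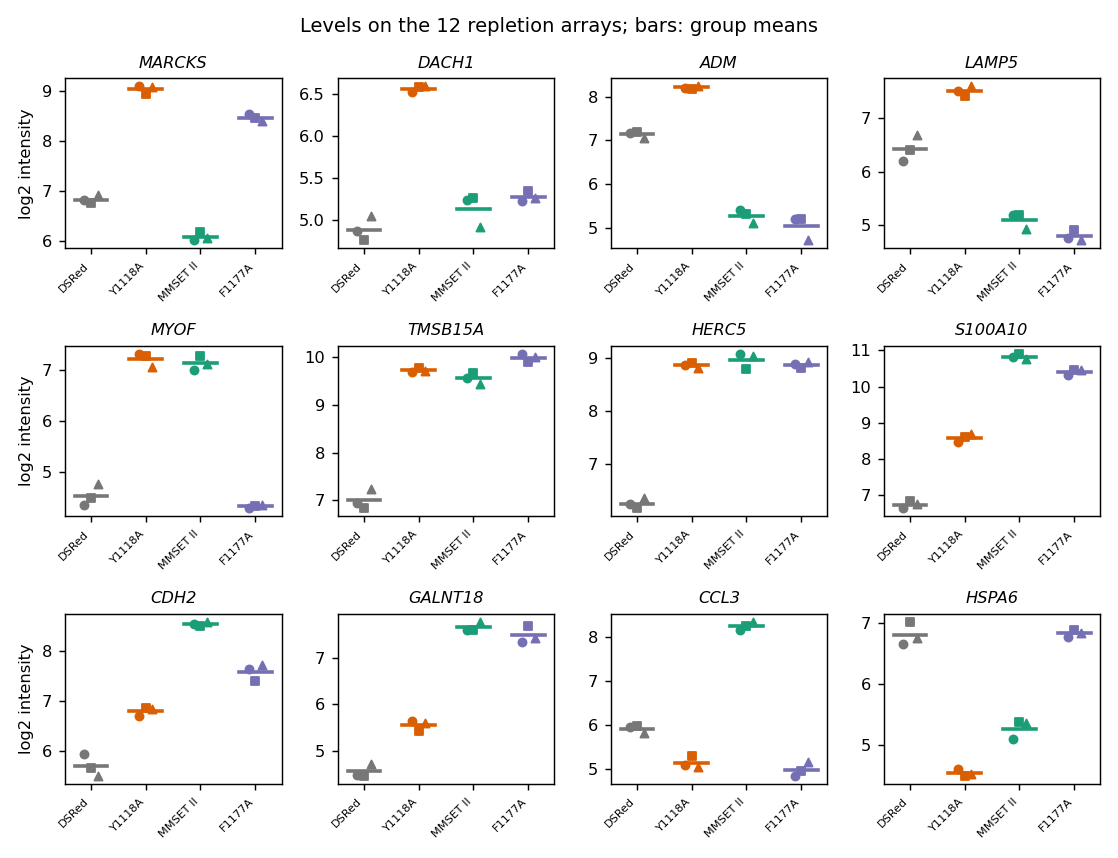
Normalised log2 intensity (y axis, each panel on its own scale) of 12 genes on the 12 repletion arrays, a marker shape per replicate and bars at group means. ADM is highest with Y1118A (8.21) and was not detected with F1177A, S100A10 is lowest with DSRed (6.74), and HERC5 lies between 8.87 and 8.97 in all 3 restored groups.

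The inducible hairpin shares no array with the comparison and is labelled as lowering MMSET in cells that are not knock-outs, so the values stand side by side. Of the 11743 probes 4778 were called in +DOX against no DOX (40.7%), 2538 higher (21.6%) and 2240 lower (19.1%), and 2905 with those groups modelled alone. Of the 1785 probes higher with Y1118A, 550 were higher with +DOX (30.8% of these and 21.7% of the probes higher with +DOX) and 251 lower (14.1% and 11.2%). Of the 1574 lower with Y1118A, 508 were lower with +DOX (32.3% and 22.7%) and 203 higher (12.9% and 8%). Single genes differed in direction. TMSB15A and HERC5 were lower with +DOX (-1.16, SE 0.153, and -0.73, SE 0.12) and higher with Y1118A, and S100A10 was -1.11 (SE 0.187). DHCR7 was higher with +DOX (0.95, SE 0.155), whereas ALDOC and ASS1 were lower in both (-1.27 and -1.17 with +DOX, SE 0.188 and 0.19). MARCKS was not called with +DOX (0.00), and MYOF was detected on none of the 6 hairpin arrays.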

How the data were processed

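RNA of KMS11 cells was measured on Illumina bead arrays. For each array the deposited table gives a linear intensity and a detection p-value for every probe, per the file headers, and the detection p-value decided which probes count as detected. Of the deposited intensities 31.1% are negative, so background was subtracted before deposit, and no source used here says how. The submitters' processing notes name GenomeStudio 1.5.4. The series matrix, whose columns share 1 distribution (median 3), was an alternative.

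Groups came from the labels. Background was corrected with limma 3.58.1 in R 4.3.3 (neqc with controls inferred from detection p, offset 16), and arrays were quantile-normalised over all 18 and put on the log2 scale, so differences of dim genes are understated. Probes detected on at least 3 of 18 arrays (13336) were fitted in 1 limma model with 1 coefficient for each group (12 residual degrees of freedom, intensity trend), two-sided, with Benjamini-Hochberg adjustment over all of them. The 95th percentile of intensity is the depth given here, and the number of arrays limits precision, with a median SE of 0.135. The procedure was tested on simulated data. Symbols came from the platform annotation, which gave 1 symbol for 27578 probes, several for 13 and none for 21212. One probe per gene was used, the one with the highest mean.

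The members, gene lists (31), motifs and named genes were chosen with earlier results of these data known. Named genes are NSD2 and its 4p16 list, the 12 largest rises and 12 falls, the 6 largest differences each way between forms, and up to 4 called members per list. FADS1, SCD, FASN, ACACA, ACLY, ELOVL6, PMVK, HSD17B7, INSIG1, SREBF1, FDPS, ASNS, ATF4, HSPA5, XBP1 and PRDM1 were named after their values were seen. Same-numbered Y1118A and DSRed arrays deviated together at 0.107, 0.029 and 0.122, so the numbers were not taken to pair arrays.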

Additional observations from a re-analysis of the deposited data

How the results depend on the processing

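Values rest on 3 arrays a group, and dim genes are understated by the offset. Without 1 array at a time, calls in Y1118A against DSRed ran from 2093 to 4720, with 1149 to 2460 higher, 944 to 2260 lower and 184 to 383 at 2-fold or more. The highest counts came without DSRed replicate 3 and the lowest count of calls without DSRed replicate 1. Calls in MMSET II against Y1118A ran from 1274 to 2494, in F1177A against Y1118A from 2919 to 4898, and in +DOX from 4563 to 5303. The share of calls that were higher stayed between 49% and 54.9% in all settings. With array weights, whose estimation stopped before it converged and which gave DSRed replicate 3 a weight of 0.194 and DSRed replicate 2 one of 5.91, Y1118A against DSRed had 7976 calls (4044 higher, 3932 lower, 334 at 2-fold or more), MMSET II against Y1118A 4807 and F1177A against Y1118A 6842. When only the arrays compared were modelled, MMSET II against Y1118A had 4243 calls, F1177A 6580 and +DOX 2905. With no detection filter there were 1036 lower with Y1118A and 1300 called in MMSET II against Y1118A. With brightness as a covariate MMSET II against Y1118A had 3044 calls and F1177A 1307. Calls at 2-fold or more numbered 128 with detection on all 18 arrays, 420 with a floor of 16, 425 in the series matrix and 383 without DSRed replicate 3. The median of the histone list turned to 0.03 with detection on all 18 arrays, and that of the respiratory chain list to -0.04 under median scaling. With the replicate number as a block, 3201 members were called in Y1118A against DSRed, 1701 higher and 1500 lower, 215 at 2-fold or more, and 1860, 4093 and 4606 in the other comparisons (MMSET II, F1177A, +DOX). With each group's mean removed, the deviations of each Y1118A array correlated best with those of the DSRed array of its own number. The values were only 0.107, 0.029 and 0.122, a hint from the data and not from the design. Without that step all Y1118A arrays correlated best with DSRed replicate 3. The +DOX comparison has no value for quantile normalisation of the compared groups alone. The causes were not tested.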
